A study of Mus musculus with 6 samples.

Results

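Transcripts of 47 genes of the Wnt pathway were examined among the 54532 genes measured by RNA sequencing in mouse hearts. The sample labels give the tissue as heart, and the study describes it as left ventricular myocardium. The set was defined by name: protein-coding genes whose symbol is Wnt, Fzd, Sfrp or Dkk with a number, together with Frzb, Wif1, Lrp5, Lrp6, Axin2, Ctnnb1, Tcf7l2, Lef1, Rspo1 and Rspo3. It held 19 ligands, 12 receptors and co-receptors, 10 secreted inhibitors, 2 secreted agonists and 4 intracellular or target genes. All mice were male C57BL/6, 6 to 8 weeks old at the start. The HFpEF mice, a model of heart failure with preserved ejection fraction, ate a high-fat diet with 60% of kcal from fat and drank water with 0.5 g/L L-NAME, a nitric oxide synthase inhibitor, over 12 weeks. Chow mice ate standard chow and drank regular water. Diet and drug were given together, so their parts cannot be told apart. Each group had 3 libraries, 1 per mouse, named here by group and replicate number.

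Wnt proteins are secreted lipid-modified ligands that bind Frizzled receptors and, in the canonical branch, the co-receptors Lrp5 and Lrp6. Receptor engagement stops the degradation of beta-catenin, which then enters the nucleus and acts with Tcf and Lef factors on target genes such as Axin2. Secreted Frizzled-related proteins and Wif1 bind the ligands, most Dickkopf proteins bind the co-receptors, and R-spondins keep the receptors at the cell surface. In the heart the pathway is active in development and is used again after injury, in fibroblasts among other cells.

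Values are the authors' FPKM, which are read fragments divided by exon length and by a factor for each library, so levels can be compared between genes per length. Read numbers recovered from the FPKM totalled 13076772 to 15574914 in Chow and 13461735 to 16027084 in HFpEF. The factor that the values imply was not this total. It was 14239712 against 15574914 reads in Chow 1, and 19316914 against 15196287 reads in HFpEF 3. Mitochondrially encoded genes took 24.0% to 26.0% of reads in Chow, and 22.6%, 20.1% and 7.17% in HFpEF 1, 2 and 3. HFpEF 3 stood apart on the first principal component, which held 42.3% of the variance. Ventricular cardiomyocyte markers led by Actc1, Mb, Myh6 and Myl3 were abundant everywhere. Their summed level was 19414 to 20800 FPKM in Chow and 13567, 14112 and 9066 FPKM in HFpEF 1, 2 and 3. All 10 were lower in every HFpEF library than in every Chow library. Among the 14227 genes tested below, 19.7% were lower in that way and 15.6% were higher. Other marker lists also moved between libraries. The summed level of 10 atrial markers led by Myl7, Nppa, Sln and Myl4 was 43.4, 47.6 and 609 FPKM in Chow 1, 2 and 3, and 2678, 4215 and 41.3 FPKM in HFpEF 1, 2 and 3, and 1 of the 10 was higher in every HFpEF library. Sln had no read in Chow 1 and Chow 2, and 869 reads in Chow 3. In bulk tissue, fewer cells of a type and less RNA per cell cannot be told apart. The sums for endothelial cells were 247 to 272 FPKM in Chow and 201 to 219 FPKM in HFpEF, those for smooth muscle and pericytes 335 to 375 and 245 to 728 FPKM, and those for macrophages 240 to 302 and 297 to 963 FPKM. Schwann cell markers summed to 11.1 to 12.7 FPKM in Chow and 12.7 to 20.96 FPKM in HFpEF, skeletal muscle markers to 495 to 595 and 179 to 338 FPKM, and bone markers to 8.11 to 9.31 and 6.54 to 23.1 FPKM. Of 10 markers in each list, 4 endothelial, 2 smooth muscle and pericyte, 1 skeletal muscle and 1 bone were lower without overlap. Higher without overlap were 4 macrophage, 5 Schwann cell and 2 bone markers. The 2 bone markers and the 1 atrial marker were not among the genes tested. Over all genes above 0 in at least 1 library, tested or not, 11.3% were higher in that way.

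No Wnt gene passed the test at an adjusted p under 0.05, but the inhibitors Dkk3, Sfrp1 and Sfrp2 and the receptors Fzd1, Fzd2 and Fzd7 had higher levels in every HFpEF library than in any Chow library. Of the 47 genes, 26 had at least 0.5 FPKM in at least 3 libraries and were tested, among 14227 genes in all, by limma with Benjamini-Hochberg adjustment. None was a differentially expressed gene (DEG), with adjusted p below 0.05 and a log2 fold change of 2 or more in size, against 0.0562% of all genes tested. At an adjusted p under 0.05 alone the share of all genes was 0.0984%. At an unadjusted p under 0.05, 8 Wnt genes were higher in HFpEF and 0 were lower, against 10.2% of all genes higher and 13.1% lower. The same 8 genes, Fzd1, Fzd2, Fzd7, Dkk3, Sfrp1, Sfrp2, Wnt6 and Wnt9a, had no overlap between the groups, each HFpEF level exceeding all Chow levels. Among all genes tested, 15.6% had no overlap in that direction and 35.3% had none in either. For each of them the exact two-sided permutation p was 0.1, the smallest that 3 mice against 3 allow. Wnt6 entered the test through its HFpEF libraries alone, so its place among the 8 is a description.

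**Figure D1:**
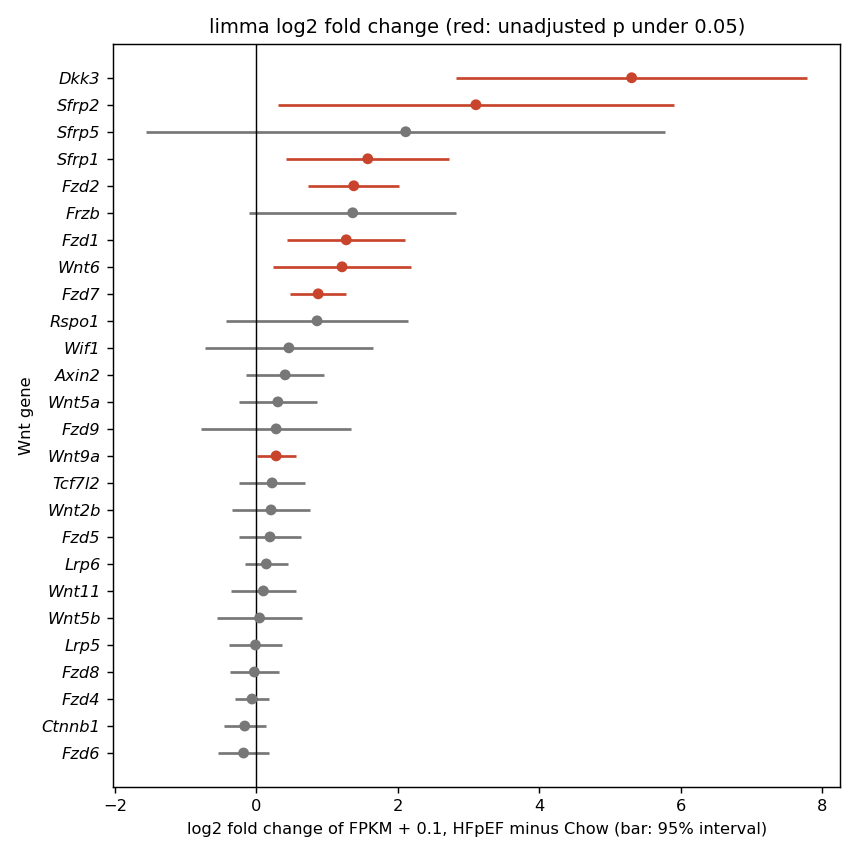
The log2 fold change of HFpEF over Chow from limma (x axis, error bars 95% confidence intervals) is shown for the 26 Wnt genes tested, ordered by size, with unadjusted p under 0.05 in red. The inhibitors reach from 0.46 for Wif1 to 5.31 for Dkk3, and most receptors lie near 0.

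The median log2 fold change of the 26 genes was 0.29, beside -0.01 over all genes tested, and 21 of them were above 0, beside 48.8% of all genes. By role, the median was 1.84 for the 6 inhibitors tested, 0.24 for the 6 ligands and 0.17 for the 10 receptors. The summed level of all inhibitors was 18.3, 16.9 and 25.7 FPKM in Chow 1, 2 and 3, and 210, 117 and 269 FPKM in HFpEF 1, 2 and 3. Every HFpEF library was thus above every Chow library, with a ratio of means of 9.77, and of 6.73 without Dkk3. Without HFpEF 3 these ratios were 8.05 and 3.18. The receptors summed to 54.9 ± 0.290 FPKM (SD, n = 3) in Chow and 68.4 ± 11.1 FPKM (SD, n = 3) in HFpEF, a ratio of 1.25. For the ligands the sums were 11.3 ± 1.00 and 15.4 ± 0.807 FPKM (SD, n = 3 each), a ratio of 1.36. Among the 26 genes, HFpEF 3 held the highest HFpEF level of 12, HFpEF 1 of 9 and HFpEF 2 of 5. The matching shares over all genes tested were not computed.

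**Figure D2:**
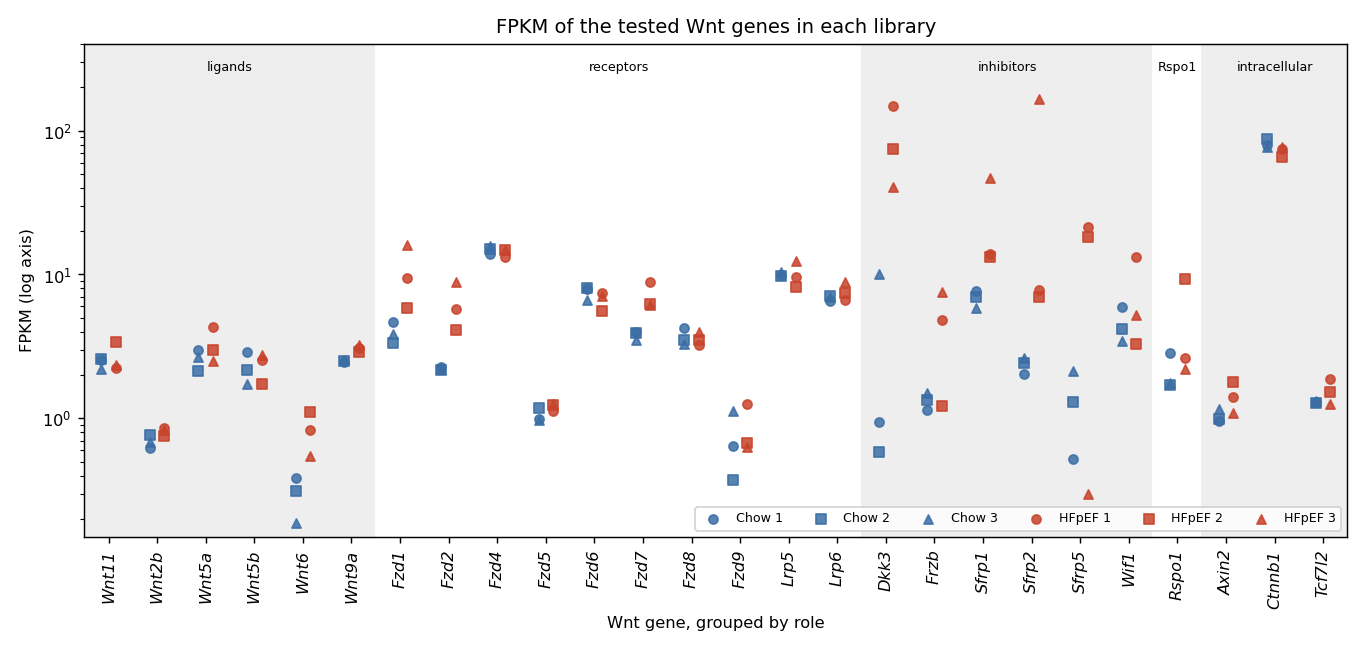
The level of each Wnt gene tested is plotted in FPKM on a log axis, with 1 point per library (Chow blue, HFpEF red, shape by replicate number) and genes grouped by role. Ctnnb1 and Fzd4 are highest in Chow, the 3 HFpEF points of Dkk3 lie above its Chow points, and Sfrp5 has HFpEF points both above and below its Chow points.

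The Frizzled receptors divided into 3 that were higher in every HFpEF library and others near their Chow level. Fzd7 (ENSMUSG00000041075, GRCm38 chr1:59482424-59486955, plus strand), a receptor for canonical and non-canonical Wnt ligands, was at 3.95, 3.89 and 3.48 FPKM in Chow 1, 2 and 3 and 8.91, 6.28 and 6.13 FPKM in HFpEF 1, 2 and 3. These levels rest on 191 to 255 reads per Chow library and 482 to 559 per HFpEF library, and the groups did not overlap. The means were 3.78 ± 0.254 and 7.11 ± 1.56 FPKM (SD, n = 3 each), with a log2 fold change of 0.87 (SE 0.17, limma adjusted p = 0.0989). Its relative Fzd2 (ENSMUSG00000050288, chr11:102604396-102608058, plus strand) was at 2.28, 2.16 and 2.21 FPKM in Chow and 5.74, 4.09 and 8.86 FPKM in HFpEF. The Chow libraries were close together (SD 0.0592 FPKM), all HFpEF libraries were above them, and HFpEF 3 was the highest. Its mean went from 2.22 to 6.23 FPKM, a log2 fold change of 1.38 (SE 0.27, limma adjusted p = 0.0989). Fzd1 (ENSMUSG00000044674, chr5:4753839-4758035, minus strand), which belongs to the same subfamily as Fzd2 and Fzd7, was at 4.65, 3.35 and 3.84 FPKM in Chow and 9.41, 5.88 and 15.9 FPKM in HFpEF. Again no libraries overlapped and HFpEF 3 was highest, and the log2 fold change was 1.27 (SE 0.35, limma adjusted p = 0.126). Without HFpEF 3, Fzd2 and Fzd7 passed at log2 fold changes of 1.09 (limma adjusted p = 0.0201) and 0.97 (limma adjusted p = 0.0267), and Fzd1 was at 0.91 (limma adjusted p = 0.0734). In that fit 8.35% of all genes passed, 2.85% as higher in HFpEF.

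The remaining receptors overlapped between the groups. Fzd4, the receptor for Norrin in vessels and the most abundant Frizzled by group mean, was at 13.8, 15.02 and 15.7 FPKM in Chow and 13.2, 14.8 and 14.7 FPKM in HFpEF. Its log2 fold change was -0.06 with a 95% confidence interval of -0.30 to 0.18. The co-receptor Lrp5 was at 9.87, 9.79 and 10.4 FPKM in Chow and 9.58, 8.24 and 12.4 FPKM in HFpEF, a log2 fold change of -0.01 (95% interval -0.39 to 0.36). Lrp6, the other co-receptor, was at 6.58, 7.06 and 6.99 FPKM against 6.64, 7.46 and 8.85 FPKM, a log2 fold change of 0.14 (95% interval -0.17 to 0.45). These intervals leave room for changes of modest size in either direction. Fzd6, a receptor linked to planar polarity, was at 7.93, 8.08 and 6.66 FPKM in Chow and 7.48, 5.55 and 7.05 FPKM in HFpEF (log2 fold change -0.18). Fzd8 was at 4.22, 3.49 and 3.26 FPKM against 3.24, 3.51 and 3.99 FPKM (-0.03), and Fzd5 at 0.995, 1.17 and 0.969 FPKM against 1.13, 1.23 and 1.27 FPKM (0.19). Fzd9, at 0.643, 0.372 and 1.12 FPKM against 1.26, 0.669 and 0.632 FPKM (0.28), varied as much within groups as between them. Fzd3 stayed below the minimum for testing, at 0.213 to 0.313 FPKM in Chow and 0.295 to 0.443 FPKM in HFpEF, and Fzd10 had 4 reads in HFpEF 1 and none elsewhere.

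The secreted Frizzled-related proteins, which carry a Frizzled-like domain and bind Wnt ligands outside the cell, varied widely between HFpEF libraries. Sfrp1 (ENSMUSG00000031548, chr8:23411502-23449632, plus strand) was at 7.63, 7.02 and 5.84 FPKM in Chow and 13.8, 13.2 and 46.8 FPKM in HFpEF. All HFpEF libraries were above all Chow libraries, and HFpEF 3 was more than 3-fold above the other HFpEF libraries. The log2 fold change was 1.58 (SE 0.48, limma adjusted p = 0.146), and 0.98 without HFpEF 3 (limma adjusted p = 0.0161). Sfrp2 (ENSMUSG00000027996, chr3:83766321-83774316, plus strand), which in fibroblasts has been tied to collagen processing, was at 2.02, 2.41 and 2.61 FPKM in Chow and 7.78, 6.99 and 165 FPKM in HFpEF, from 61 to 68 reads per Chow library and 232, 255 and 6863 reads in HFpEF. HFpEF 3 alone lifted the mean to 59.9 ± 91.0 FPKM (SD, n = 3), against 2.35 ± 0.300 FPKM (SD, n = 3) in Chow. The log2 fold change was 3.10 (SE 1.17, limma adjusted p = 0.188), and 1.62 without HFpEF 3 (limma adjusted p = 0.0118). Sfrp2 shares 16.1% of its exon bases with the annotated gene Gm26771, and whether counting used strand is not stated. Frzb (ENSMUSG00000027004, chr2:80411970-80447625, minus strand), known from cartilage, was at 1.15, 1.34 and 1.51 FPKM in Chow and 4.80, 1.22 and 7.53 FPKM in HFpEF. HFpEF 2 lay within the Chow range, and the log2 fold change of 1.36 (SE 0.61) had a limma adjusted p of 0.237.

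Several markers of stromal cells moved with these genes across libraries. The 10 fibroblast markers, led by Col1a1, Col3a1, Col1a2 and Dcn, summed to 318, 294 and 270 FPKM in Chow and 540, 587 and 5743 FPKM in HFpEF. Of them 8 were higher in every HFpEF library, beside 15.6% of all genes tested. Col1a1 alone was at 2252 FPKM in HFpEF 3, against 54.0 and 87.2 FPKM in the other HFpEF libraries. Col3a1 and Col1a2 were at 1810 and 702 FPKM there, so the sum in HFpEF 3 rests mainly on collagen genes. Every marker of the list was highest in HFpEF 3, but unevenly. Dcn was at 177, 168 and 196 FPKM in HFpEF 1, 2 and 3, and Pdgfra at 11.3, 11.6 and 13.0 FPKM. The 10 cartilage, tendon and valve markers, led by Cytl1, Fmod, Comp and Cilp, summed to 24.5, 20.4 and 19.7 FPKM in Chow and 115, 37.6 and 105 FPKM in HFpEF, with 5 of 10 higher in every HFpEF library. The libraries with the higher cartilage and valve sums, HFpEF 1 and 3, were those with the higher Frzb levels. The part of stromal cell content in these results was not tested.

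**Figure D3:**
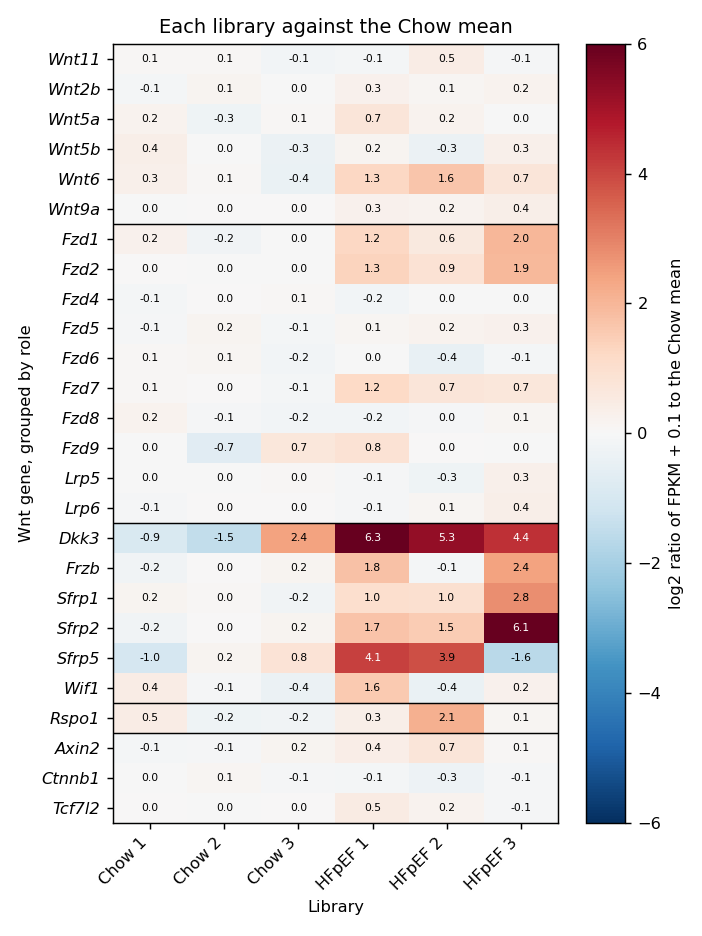
The log2 ratio of each library to the Chow mean (colour scale) is shown for the Wnt genes tested, with genes in rows and the 6 libraries in columns. Sfrp1, Sfrp2 and Fzd1 have their highest values in HFpEF 3, whereas Dkk3 and Sfrp5 have theirs in HFpEF 1.

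Dkk3 and Sfrp5 followed another order of the libraries. Dkk3 (ENSMUSG00000030772, chr7:112116017-112159057, minus strand), a divergent Dickkopf that unlike its relatives does not bind the Lrp co-receptors well, was at 0.941, 0.584 and 10.04 FPKM in Chow and 148, 74.1 and 40.7 FPKM in HFpEF. The groups did not overlap, although Chow 3 stood well above the other Chow libraries, with 408 reads against 45 and 23. The means were 3.86 ± 5.36 and 87.6 ± 55.0 FPKM (SD, n = 3 each), and the log2 fold change was 5.31 (SE 1.04, limma adjusted p = 0.0989). Without Chow 3 the log2 fold change was 6.50 (limma adjusted p = 0.134). Chow 3 was also the Chow library with the highest atrial marker sum, and HFpEF 1 and 2 had the highest sums of all. In HFpEF 3 the atrial sum was 41.3 FPKM, below every Chow library, and Dkk3 was at 40.7 FPKM.

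Sfrp5 (ENSMUSG00000018822, chr19:42197971-42202252, minus strand), described as a Wnt5a antagonist made by adipose tissue, was at 0.517, 1.30 and 2.13 FPKM in Chow and 21.3, 18.2 and 0.300 FPKM in HFpEF. HFpEF 3 had 11 reads, fewer than any Chow library, while HFpEF 1 and 2 had 561 and 585. The log2 fold change of 2.11 (SE 1.53) had a limma adjusted p of 0.421. It was 3.99 (limma adjusted p = 0.0248) without HFpEF 3, the HFpEF library in which Sfrp5 was low. Of all genes tested, 8.35% passed in that fit. HFpEF 1 and 2 were the libraries with the high atrial sums, of 2678 and 4215 FPKM. They also had the higher sums of 10 adipocyte markers, led by Plin4, Cfd, Cidea and Car3. These were 145 and 142 FPKM, beside 66.9 FPKM in HFpEF 3 and 42.6 to 49.9 FPKM in Chow. Of the 10 markers 8 were higher in every HFpEF library, beside 11.3% of all genes above 0 in at least 1 library. Lep and Retn, which were not tested, are among the 8. All 8 were at no more than 0.0746 FPKM in Chow, so those tested entered the test through their HFpEF libraries alone. Plin4 and Cidea, at 26.6 to 30.0 and 15.4 to 19.9 FPKM in Chow, made up most of the Chow sums and overlapped between the groups. Cfd had no read in Chow and 451, 591 and 407 reads in HFpEF 1, 2 and 3. The part of atrial or adipose tissue in the Dkk3 and Sfrp5 values was not tested. Wif1 (ENSMUSG00000020218, chr10:121033960-121100650, plus strand), which binds Wnt ligands through its own WIF domain, was at 5.96, 4.18 and 3.44 FPKM in Chow and 13.2, 3.28 and 5.25 FPKM in HFpEF. Only HFpEF 1 exceeded the Chow range, and the log2 fold change was 0.46 (95% interval -0.72 to 1.64), or -0.09 without that library.

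**Figure D4:**
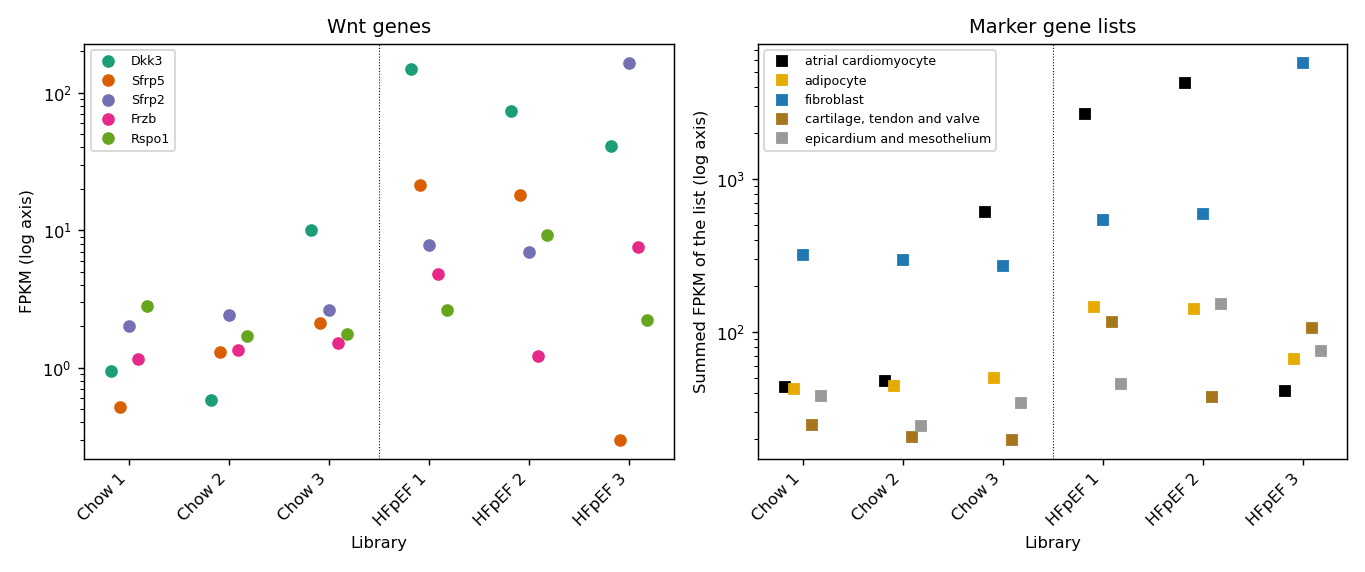
The left panel shows the FPKM of 5 Wnt genes and the right panel the summed FPKM of 5 marker lists, both on log axes, with 1 point per library. Dkk3 and Sfrp5 are high in HFpEF 1 and 2, where the atrial sum is 2678 and 4215 FPKM. In HFpEF 3 the atrial sum is 41.3 FPKM, and Dkk3, at 40.7 FPKM, still lies above its Chow points. Sfrp2 is highest in HFpEF 3, where the fibroblast sum is 5743 FPKM, mainly from collagen genes.

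Other inhibitors were near or below detection. Sfrp4 was at 0.0594 to 0.102 FPKM in Chow and 0.380, 0.240 and 1.70 FPKM in HFpEF, from 3 to 6 reads against 22, 17 and 137. Dkk2 had 1, 0 and 1 reads in Chow and 6, 5 and 93 in HFpEF. Both were higher in every HFpEF library and highest in HFpEF 3, but neither was tested. Dkk4 had 1 read in HFpEF 1, and Dkk1, the classical Lrp5 and Lrp6 antagonist, had no read in any library. A count of 0 allows up to 3 reads, and these limits cover counting error only.

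Among the ligands, 6 of 19 were tested, and Wnt6 and Wnt9a had no overlap between the groups. Wnt6 (ENSMUSG00000033227, chr1:74771892-74785322, plus strand) was at 0.384, 0.311 and 0.189 FPKM in Chow and 0.824, 1.10 and 0.543 FPKM in HFpEF, on 5 to 12 reads per Chow library and 23 to 41 in HFpEF. The log2 fold change was 1.21 (SE 0.41, limma adjusted p = 0.163). Wnt6 was below 0.5 FPKM in every Chow library and was tested only through its HFpEF libraries, so these values are a description. Wnt9a (ENSMUSG00000000126, chr11:59306928-59333552, plus strand), a canonical ligand of developing joints and heart valves, was at 2.47, 2.51 and 2.53 FPKM in Chow and 3.06, 2.89 and 3.25 FPKM in HFpEF. The difference was small and the libraries within each group close together, with a log2 fold change of 0.28 (SE 0.12, limma adjusted p = 0.211). Wnt5a, the main non-canonical ligand, was at 2.98, 2.12 and 2.66 FPKM in Chow and 4.33, 3.00 and 2.51 FPKM in HFpEF (log2 fold change 0.30). Its paralog Wnt5b was at 2.91, 2.18 and 1.74 FPKM against 2.56, 1.73 and 2.77 FPKM (0.05). Both overlapped between the groups. Wnt11, another non-canonical ligand with a role in heart development, was at 2.55, 2.60 and 2.20 FPKM against 2.25, 3.41 and 2.35 FPKM (0.10), and Wnt2b at 0.619, 0.771 and 0.689 FPKM against 0.859, 0.759 and 0.826 FPKM (0.21). Those 2 ligands overlapped as well.

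The other 13 ligands were too low to test. Wnt4 had 8, 2 and 1 reads in Chow and 13, 80 and 38 in HFpEF, Wnt2 had 10, 1 and 2 against 13, 23 and 24, and Wnt10b had 3, 2 and 8 against 12, 12 and 60. In each of these the HFpEF libraries were all above the Chow libraries. Wnt16 had 0, 0 and 1 reads in Chow and 58, 0 and 41 in HFpEF, and Wnt9b 1, 10 and 12 against 27, 5 and 13. Wnt7b had 0 to 3 reads in Chow and 3 to 6 in HFpEF, Wnt7a 2 reads in HFpEF 1, Wnt10a 1 read in HFpEF 2 and Wnt8b 3 reads in Chow 3. Wnt1, Wnt3, Wnt3a and Wnt8a had none. Of the 47 genes, 42 had a value above 0 in at least 1 library. Tested or not, 15 of these were higher in every HFpEF library than in every Chow library. Among all 27437 genes with such a value the share was 11.3%. Some of the 15 rest on few reads, such as Lef1 with 1, 0 and 1 in Chow and 3, 4 and 7 in HFpEF.

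Of the R-spondins, which act on Lgr receptors and Znrf3 or Rnf43 to keep Frizzleds at the surface, Rspo1 was at 2.83, 1.71 and 1.75 FPKM in Chow and 2.61, 9.26 and 2.22 FPKM in HFpEF. HFpEF 2 alone was above the Chow range, and the log2 fold change was 0.86 (95% interval -0.43 to 2.15). The same library had the highest sum of 10 epicardial and mesothelial markers, led by Msln, Upk3b, Aldh1a2 and Upk1b. It was 153 FPKM, beside 45.3 and 74.5 FPKM in HFpEF 1 and 3 and 24.2 to 37.8 FPKM in Chow. Of the 10 markers 7 were higher in every HFpEF library, the untested Muc16 among them. Over all genes above 0 in at least 1 library, tested or not, the share was 11.3%. The part of such cells in the Rspo1 and Wnt4 values of that library was not tested. Rspo3, an endothelial R-spondin, was not tested, with 4, 0 and 1 reads in Chow and 28, 9 and 25 in HFpEF.

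The intracellular and target genes that were tested overlapped between the groups. Ctnnb1, which encodes beta-catenin and was the most abundant of the 47 genes in Chow, was at 78.8, 87.8 and 76.4 FPKM in Chow and 74.6, 65.3 and 77.4 FPKM in HFpEF. Its log2 fold change was -0.16 (95% interval -0.46 to 0.13), and 15.1% of its exon bases are shared with other annotated genes. Axin2, the feedback inhibitor that canonical signalling induces, was at 0.957, 0.991 and 1.16 FPKM in Chow and 1.42, 1.79 and 1.08 FPKM in HFpEF, where HFpEF 3 lay within the Chow range. Its log2 fold change was 0.41 (95% interval -0.14 to 0.96, limma adjusted p = 0.320). Tcf7l2, a nuclear partner of beta-catenin, was at 1.30, 1.28 and 1.32 FPKM against 1.88, 1.53 and 1.25 FPKM (0.22). Lef1 was not tested, with 1, 0 and 1 reads in Chow and 3, 4 and 7 in HFpEF.

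The promoters of Axin2 and Lef1, targets of canonical signalling, are shown with those of Fzd1, Fzd7 and Sfrp2, for comparison with the receptor and inhibitor genes whose levels were higher. RefSeq gives 1 window of 300 bases (250 before to 50 after the start site) on GRCm38.p6 for most genes and several for some. The letters searched were CTTTGA and, for the other strand, TCAAAG, and a match is set in capitals. They are 1 form of the core of Tcf and Lef sites. Other forms were not searched, so a window without a match may still hold such a site.
Axin2 (chr11:108920099-108920398, plus strand): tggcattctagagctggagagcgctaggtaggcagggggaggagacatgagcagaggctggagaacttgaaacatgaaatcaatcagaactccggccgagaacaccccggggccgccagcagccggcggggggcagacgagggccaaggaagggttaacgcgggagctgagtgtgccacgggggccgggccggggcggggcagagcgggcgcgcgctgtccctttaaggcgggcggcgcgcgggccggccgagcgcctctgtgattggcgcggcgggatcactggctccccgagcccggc
Lef1 (chr3:131110047-131110346, plus strand): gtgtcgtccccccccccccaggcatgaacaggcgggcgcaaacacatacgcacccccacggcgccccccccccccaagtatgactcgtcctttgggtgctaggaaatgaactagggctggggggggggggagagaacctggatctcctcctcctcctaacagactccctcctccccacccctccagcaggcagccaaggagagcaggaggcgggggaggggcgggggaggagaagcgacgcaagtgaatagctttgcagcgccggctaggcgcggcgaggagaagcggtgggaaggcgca
Fzd1 (chr5:4758167-4758466, minus strand): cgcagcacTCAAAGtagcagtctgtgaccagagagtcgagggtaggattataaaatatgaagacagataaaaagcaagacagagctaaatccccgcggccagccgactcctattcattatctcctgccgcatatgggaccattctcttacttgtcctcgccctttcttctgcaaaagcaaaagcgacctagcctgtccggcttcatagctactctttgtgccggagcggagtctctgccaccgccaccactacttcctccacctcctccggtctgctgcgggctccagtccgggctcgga
Fzd7 (chr1:59481897-59482196, plus strand): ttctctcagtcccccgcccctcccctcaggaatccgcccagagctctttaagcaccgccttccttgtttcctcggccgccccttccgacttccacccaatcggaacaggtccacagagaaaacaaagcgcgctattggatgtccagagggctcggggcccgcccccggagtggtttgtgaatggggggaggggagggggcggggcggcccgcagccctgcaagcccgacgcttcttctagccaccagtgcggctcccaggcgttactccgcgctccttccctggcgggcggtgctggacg
Sfrp2 (chr3:83766071-83766370, plus strand): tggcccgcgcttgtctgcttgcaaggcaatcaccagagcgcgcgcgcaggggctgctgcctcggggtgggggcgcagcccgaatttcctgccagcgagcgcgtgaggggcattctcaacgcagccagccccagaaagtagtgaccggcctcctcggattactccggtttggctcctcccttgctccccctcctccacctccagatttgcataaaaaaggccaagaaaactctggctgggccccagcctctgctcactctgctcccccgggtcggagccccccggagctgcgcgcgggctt
Of the windows shown, that of Fzd1 held the letters, upstream of its start site, and in the other windows shown these letters do not occur. Lef1 has 4 windows in the table, and 1 of those not shown held the letters. Over 40 windows of 32 Wnt genes with an entry, 6 held them (15%), beside 16.0% of all 32851 windows. The Wnt windows had a median GC content of 67.3%, against 52.7% for all windows.

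Other genes of the pathway were taken from hand-written lists of 88 genes, of which 73 were tested. At an unadjusted p under 0.05, 14 were higher and 2 lower in HFpEF, beside 10.2% and 13.1% of all genes tested. None passed after adjustment, and the median log2 fold change was 0.12, beside -0.01 over all genes. Igfbp4, a secreted protein that binds Frizzled 8 and Lrp6, was at 39.9, 38.4 and 33.7 FPKM in Chow and 79.8, 77.8 and 124 FPKM in HFpEF, a log2 fold change of 1.29 (limma adjusted p = 0.0820). The target gene Ccn4 was at 0.265, 0.199 and 0.371 FPKM against 1.67, 1.91 and 6.16 FPKM, a log2 fold change of 2.92 (limma adjusted p = 0.0953). Neither gene overlapped between the groups. Nkd1, a feedback antagonist induced by the pathway, was at 0.585, 0.673 and 0.798 FPKM against 2.57, 1.40 and 2.34 FPKM (log2 fold change 1.45), and Wls, which carries Wnt ligands to the cell surface, at 7.82, 6.71 and 7.47 FPKM against 10.4, 11.7 and 14.7 FPKM (0.72). Of the 12 target genes in these lists 7 were tested. Ccn4, which entered the test through its HFpEF libraries alone, and Nkd1 were those with an unadjusted p under 0.05. The log2 fold changes of the other tested targets were 0.99 for Ccn5, 0.98 for Myc, 0.13 for Tnfrsf19, -0.08 for Znrf3 and -0.29 for Ccnd1, and all of these but Ccn5 overlapped between the groups. The untested targets Notum, Rnf43, Lgr5 and Tcf7 overlapped too, and Sp5 was higher in every HFpEF library, at no more than 0.172 FPKM. The heparan sulfate proteoglycans Gpc3 and Gpc6 were at log2 fold changes of 1.17 and 1.16, and the Wnt5a receptor Ror2 at 1.60. Ror2, like Ccn4, was below 0.5 FPKM in every Chow library, so the calls of these genes are a description. The rest of the higher genes were Apcdd1, Daam2, Tle3, Dact1, Dact3, Porcn and Nfatc4, at 0.52 to 1.15. The lower genes were Kremen1, a Dickkopf receptor, at 22.4, 22.1 and 22.4 FPKM in Chow and 18.6, 16.9 and 15.5 FPKM in HFpEF (-0.40), and the kinase gene Csnk1g2 (-0.28).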

How the data were processed

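RNA from hearts of 3 Chow and 3 HFpEF mice was sequenced, from left ventricular myocardium by the study's description. The authors used HISAT2 for alignment and featureCounts for gene counts, and deposited FPKM for 54532 genes. The submitters' processing notes name GRCm38 (mm10), and the annotation release is not given in the sources used here. Gene positions and exon lengths were taken from GENCODE release M21. FPKM times exon length gave whole reads for 96.1% to 96.2% of values at a tolerance of 1e-06, from which read numbers were recovered. FPKM was rescaled by medians of ratios. The factors were 0.9986 to 1.0018, so the deposited values were already close to that scale. The limma model (eBayes with trend and robust) was fitted to log2(FPKM + 0.1), so fold changes of low genes are understated. The DEG threshold is that of the study's methods, which name an adjusted p. The study's results give the same fold change with a p under 0.05 that is not called adjusted. The study used DESeq2 on counts, and limma on log2 FPKM took its place here, so numbers of DEGs are not comparable. Groups came from the sample labels. No unmapped column was used.

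Every gene of the Wnt set is accounted for, in full where its p was among the 20 smallest or its level among the 4 highest of its class. Marker lists cover fibroblasts, bone, cartilage and valve, endothelium, smooth muscle, macrophages, adipocytes, ventricular and atrial cardiomyocytes, epicardium, Schwann cells and skeletal muscle. The genes and lists were chosen with earlier results of these data known. The atrial list was added after the Dkk3 values were seen. Alternatives were other scalings, pseudocounts, filters and moderation, voom on recovered reads, a replicate block and leaving out each library. The fit of Chow 1, Chow 2 and HFpEF 3 alone was chosen after seeing the data. The fit was tested on simulated data. Software was R 4.3.3 with limma 3.58.1 and Python 3.11.15 with pandas 2.3.3, numpy 2.4.6, scipy 1.17.1 and matplotlib 3.10.9. The proteomics and other assays of the study were not analysed here.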

Additional observations from a re-analysis of the deposited data

How the results depend on the processing

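Directions held for 15 of the 26 genes tested under every alternative run, and 403 of 439 recomputed values kept direction and side of the threshold. The number of DEGs among the Wnt genes was 0 to 1 when each library was left out in turn (Sfrp5 without HFpEF 3, beside 0.415% of all genes) and 4 with only Chow 1, Chow 2 and HFpEF 3, beside 2.89% of all genes. That last fit has 1 HFpEF library and libraries chosen after the values were seen, so its calls are a description and support nothing. The number at an unadjusted p under 0.05 was 5 (without Chow 3, beside 14.8% of all genes) to 9 (without HFpEF 3, beside 25.2%), against 8 and 23.4% with all libraries, and the median log2 fold change was 0.24 to 0.46, the latter without HFpEF 3. Adjusted p was under 0.05 for 5 genes without HFpEF 3, Fzd2, Fzd7, Sfrp1, Sfrp2 and Sfrp5, beside 8.35% of all genes, and for 0 under every other alternative that has at least 2 HFpEF libraries. The cause of these shifts was not tested. Over all genes, DEGs numbered 8 in the fit reported, 19 with eBayes without trend or robust, 14 with a minimum of 10 reads, 2 and 3 at pseudocounts of 1 and 0.01, 5 with an FPKM minimum of 1, 0 with voom, 2 with the replicate block, 2 to 59 with 1 library left out and 411 with only Chow 1, Chow 2 and HFpEF 3. Genes with an adjusted p under 0.05 numbered 14 in the fit reported, 0 to 1188 across the others and 4894 with only Chow 1, Chow 2 and HFpEF 3.

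Libraries with the same replicate number did not deviate together (correlations -0.041, -0.073 and -0.057). These are deviations from means of 3 libraries, so they cannot decide whether the numbers pair the mice, and the labels do not say. With the replicate block 8 Wnt genes had an unadjusted p under 0.05, but Frzb joined them and Wnt9a lost its call, there were 0 DEGs, and the median log2 fold change was 0.29. Signs turned in 11 genes, Sfrp5 and Wif1 among them. With quantile normalization the log2 fold change was 0.087 for Ctnnb1, -0.025 for Wnt11, -0.083 for Wnt5b, 0.020 for Fzd4 and 0.020 for Lrp5. With only Chow 1, Chow 2 and HFpEF 3 it was -1.22 for Sfrp5, -0.043 for Tcf7l2, -0.12 for Wnt11, -0.0066 for Wnt5a, 0.029 for Fzd4, 0.054 for Fzd8 and 0.33 for Lrp5. With 1 library left out the ranges were -0.086 to 0.90 for Wif1, -0.083 to 0.21 for Wnt11, -0.12 to 0.24 for Wnt5b, -0.11 to 0.076 for Fzd8, -0.057 to 0.63 for Fzd9 and -0.17 to 0.12 for Lrp5.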

Other observations

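Other secreted regulators of the pathway varied widely between HFpEF libraries. Cthrc1, a secreted protein of activated fibroblasts, was at 0.176, 0.375 and 0.260 FPKM in Chow and 0.317, 3.11 and 52.6 FPKM in HFpEF, and was not tested. Sost, which encodes the Lrp5 and Lrp6 antagonist sclerostin, was at 0.476, 0.536 and 0.480 FPKM in Chow and 21.5, 0.429 and 6.62 FPKM in HFpEF. HFpEF 2 was below every Chow library for Sost, and the log2 fold change of 2.83 had a limma adjusted p of 0.230.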
